A study of Mus musculus with 4 samples.

Results

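Transcription factor genes that divide the embryonic forebrain into territories, 9 in number, were followed across 4 RNA-seq libraries of cultured mouse neural progenitors. They are *Emx1*, *Emx2* and *Lhx2*, which mark the dorsal telencephalon, *Dlx1*, *Dlx2*, *Gsx2* and *Nkx2-1*, which mark the ventral telencephalon, and *Otx1* and *Otx2*, which mark the forebrain and midbrain. The genes were chosen by name from their known regional expression, with earlier results of these libraries known. All 9 were found among the 21091 entries of the tables, and all 9 were among the 12449 entries with a mean of at least 1 FPKM (fragments per kilobase, relative to all fragments mapped in that library).

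Progenitors were taken from C57BL/6 mouse brains at embryonic day 11 (E11) or 14 (E14) and grown in suspension for 3 days with EGF and FGF, and total RNA was then sequenced. At each stage 1 library came from embryos labelled wild type, called CTL here, and 1 from embryos with a conditional knockout of *Stat3* (*Stat3* cKO), the transcription factor that carries cytokine signals to the nucleus. Both *Stat3* alleles were floxed in the cKO, and Cre was driven by a rat *Nestin* promoter and enhancer, which acts in neural progenitors. In the study's mouse section, controls carried Nestin-Cre and a single floxed *Stat3* allele, whereas the sequencing section and the labels say wild type, so it is not known whether the CTL libraries carried Cre. Each group had 1 library, so differences have no replicate error to be measured by, and no test was run.

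In the early forebrain, these factors are expressed in overlapping fields that become sharp territories. EMX1, EMX2 and LHX2 act in the progenitors of the cortex and hippocampus, where EMX2 forms a graded field and LHX2 sets cortical identity against the hem at its medial edge. GSX2 acts in progenitors of the lateral ganglionic eminence and NKX2-1 in those of the medial ganglionic eminence and the hypothalamus, while DLX1 and DLX2 act together in both eminences and lead towards GABAergic interneurons. OTX2 is needed early for the whole fore- and midbrain, and OTX1 later acts in the cortex.

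Low FPKM values fell on steps that correspond to single fragments. From these steps, the E11 libraries were put at about 48400000 fragments (CTL) and 36700000 (cKO), and the E14 libraries at about 41600000 and 45900000. The members then rested on between about 63 fragments, for *Dlx2* in E14 CTL, and about 6155, for *Lhx2* in E14 *Stat3* cKO. Ratios are given with 95% intervals that follow from these fragment numbers (exact conditional binomial). They cover counting error only, since fragments copied by PCR are not independent molecules, and not the spread between embryos or cultures. *Stat3* itself was at 7.41 FPKM (CTL) and 6.74 (cKO) at E11 and at 27.6 and 9.55 at E14, so its level set the cKO apart at E14 and hardly at E11. All 10 neural progenitor markers, *Sox2*, *Nes* and *Fabp7* among them, reached 1 FPKM in all 4 libraries. The 4 libraries also differed in features other than stage and genotype. The Y-linked *Ddx3y* reached 25.1 FPKM in the E14 cKO library, while it was at 0.0569 in the E14 control and at 0 in both E11 libraries. The summed level of 9 markers of mesenchyme and vessels was 1091 and 1005 FPKM in the E11 CTL and cKO libraries and 12.8 and 9.25 in the E14 ones. The part of either in the results below was not tested.

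*Lhx2* and *Otx2* were the highest members at E11, and *Lhx2* and *Emx1* at E14. In E11 CTL, *Otx2* at 31.9 FPKM and *Lhx2* at 31.2 were not separated by their counting intervals, and the next, *Emx1*, was at 10.1. In E11 *Stat3* cKO, *Otx2* at 35.0 stood above *Lhx2* at 30.1, and *Emx2* came next at 9.10. In the E14 control, *Lhx2* at 43.3 and *Emx1* at 24.2 stood far above the other 7 members, which lay between 0.613 and 3.59. In E14 *Stat3* cKO, *Lhx2* was at 47.2, *Emx1* at 19.3 and the other 7 between 1.55 and 6.05. Among the lower members, many neighbours in the order had overlapping intervals, such as *Otx1*, *Emx2* and *Dlx1* in E11 CTL and *Dlx1*, *Otx2* and *Emx2* in E14 CTL. *Nkx2-1* was the lowest member in both E11 libraries, with an interval that overlapped that of *Dlx2*, and *Dlx2* the lowest in both E14 libraries.

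**Figure D1:**
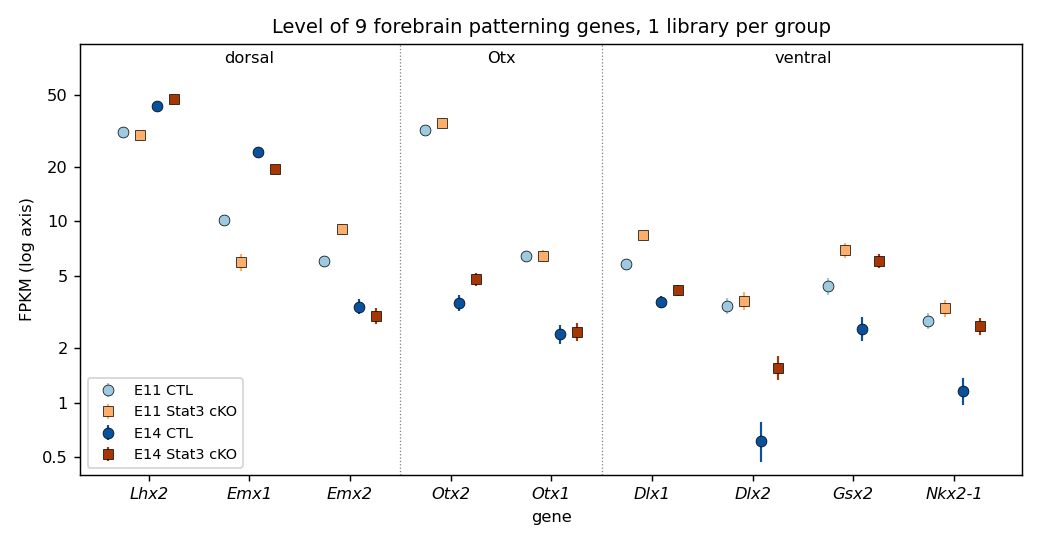
Level of each gene in FPKM on a log axis, with circles for CTL, squares for *Stat3* cKO, pale symbols for E11 and dark symbols for E14. Vertical bars are 95% counting intervals, which are often smaller than the symbol. *Otx2* is above 30 FPKM at E11 and below 5 at E14 in both genotypes, and *Dlx2*, *Gsx2* and *Nkx2-1* are lower in E14 CTL than in the other 3 libraries.

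The first question was how the regional code of the cultures differed between the stages. In both genotypes the E14 libraries held more *Emx1* and *Lhx2* and less of the other 7 members than the E11 libraries. In CTL, 1 of 9 members was at least 2-fold higher at E14 and 4 were at least 2-fold lower, against 14.6% higher and 12.5% lower of the 12430 entries with a mean of at least 1 FPKM and a ratio. In *Stat3* cKO, 1 was higher and 5 were lower, against 10.1% and 11.7% of 12426 entries. With upper-quartile scaling, 0 members were higher and 7 lower in CTL. The members had median log2 ratios of -0.84 (CTL) and -1.01 (cKO), where all entries had 0.21 and 0.06. With no minimum level, the shares of entries were 12.4% higher and 25.3% lower in CTL, and 11.8% higher and 17.4% lower in cKO.

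Among the dorsal members, *Emx1* (listed on chromosome 6 from 85137924 to 85154457) stood at 10.1 FPKM in CTL and 5.93 in cKO at E11, and at 24.2 in CTL and 19.3 in cKO at E14. Both E14 values lay above both E11 values, and in each stage the cKO was the lower of the pair. The E14 to E11 ratio was 2.39 (95% interval 2.19 to 2.61) in CTL and 3.26 (2.89 to 3.68) in cKO. *Lhx2*, listed on chromosome 2 from 38206827 to 38225248, had 31.2, 30.1, 43.3 and 47.2 FPKM in the same order of libraries. It too was higher in both E14 libraries, by 1.39-fold in CTL and 1.57-fold in cKO. In CTL its log2 ratio of 0.47 became 0.26 with the median of entries set to 0 and 0.10 with upper-quartile scaling. *Lhx2* was the steadiest member as deposited, with its highest value 1.57 times its lowest. *Emx2* went the other way. Listed on chromosome 19 from 59533179 to 59539847, it had 6.05 FPKM in CTL and 9.10 in cKO at E11, then 3.38 and 3.00 at E14, and its E14 to E11 ratio was 0.56 in CTL and 0.33 in cKO. The level of *Emx1* over that of *Emx2* within a library, which does not depend on scaling between libraries, was 1.68 and 0.651 in the E11 CTL and cKO libraries and 7.16 and 6.43 in the E14 ones. *Emx2os*, the antisense transcript listed 54 bases from *Emx2*, had 0.969, 1.12, 0.585 and 0.733 FPKM, so it was also lower in both E14 libraries.

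*Otx2* had the largest difference with stage of the 9. Listed on chromosome 14 from 49277858 to 49282547, it was at 31.9 FPKM in CTL and 35.0 in cKO at E11, but at 3.56 and 4.78 at E14. Both E11 values lay above both E14 values. The E14 to E11 ratio was 0.112 (95% interval 0.1003 to 0.124) in CTL and 0.137 (0.125 to 0.149) in cKO. *Otx1*, its close relative, listed on chromosome 11 from 21894766 to 21901654, had 6.40, 6.42, 2.38 and 2.45 FPKM in the same order, a ratio of 0.372 in CTL and 0.382 in cKO. Within a library, *Otx2* went from 4.98 and 5.44 times *Otx1* in the E11 CTL and cKO libraries to 1.496 and 1.95 times in the E14 ones. Against *Lhx2*, *Otx2* was at 1.02 and 1.16 times in the E11 libraries and at 0.0824 and 0.101 times in the E14 ones. Mesenchymal and vessel markers had the same direction with stage, 8 of 9 reaching 1 FPKM in each E11 library and 2 and 3 in the E14 CTL and cKO libraries, with none at 0, and their part in the *Otx2* difference was not tested. In bulk RNA, fewer cells that express a gene and less of its RNA in each cell cannot be told apart.

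The 4 ventral members were all lower at E14 in both genotypes, by unequal amounts. *Dlx2* (chromosome 2, 71381464 to 71384811 as listed) was at 3.43 FPKM in CTL and 3.64 in cKO at E11 and at 0.613 and 1.55 at E14, and its E14 to E11 ratio was 0.179 (0.135 to 0.234) in CTL and 0.426 in cKO. *Nkx2-1*, listed on chromosome 12 from 57632923 to 57637895, had 2.83, 3.32, 1.16 and 2.65 FPKM, a ratio of 0.409 (0.333 to 0.498) in CTL and 0.797 (0.685 to 0.930) in cKO. *Gsx2*, listed on chromosome 5 from 75471625 to 75473918, had 4.37, 6.93, 2.56 and 6.05 FPKM, a ratio of 0.585 in CTL and 0.872 (0.763 to 0.997) in cKO, an interval that reached 1.02 if its shorter transcript is assumed and then includes 1. For these 3 genes the E14 CTL library was the lowest of the 4. *Dlx1*, listed on chromosome 2 from 71367501 to 71375948, had 5.82, 8.40, 3.59 and 4.17 FPKM, and its ratio was 0.616 in CTL and 0.497 in cKO. The listed locus of *Dlx1* is the same as that of its antisense transcript *Dlx1as*, which had 11.7, 16.9, 14.1 and 18.5 FPKM. Whether fragments were assigned by strand is not stated, so reads of this pair cannot be told apart and the level of *Dlx1* is uncertain.

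**Figure D2:**
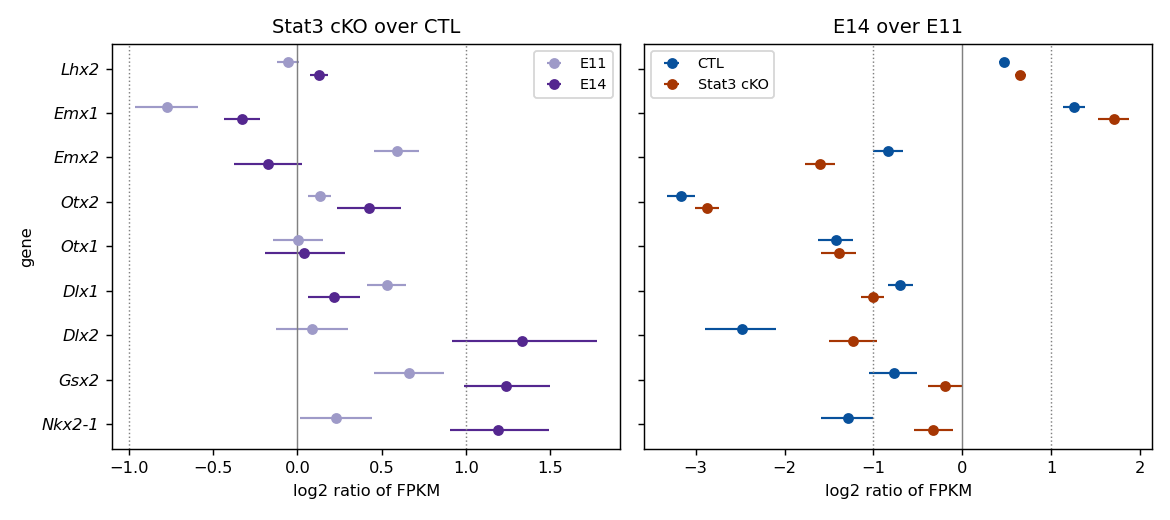
Log2 ratio of FPKM for each gene, with *Stat3* cKO over CTL at each stage on the left and E14 over E11 in each genotype on the right; bars are 95% counting intervals and dotted lines mark 2-fold. On the left, *Dlx2*, *Gsx2* and *Nkx2-1* at E14 are the points to the right of 2-fold, at 1.34, 1.24 and 1.19. On the right, *Emx1* and *Lhx2* lie above 0 and the other 7 genes below it.

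The same stage comparison was read over gene lists for other territories. Of 11 diencephalic genes, 10 reached 1 FPKM in each E11 library, whereas at E14 0 did in CTL and 1 in cKO. All 11 were at least 2-fold lower at E14 in both genotypes, and their sum was 110 FPKM in both E11 libraries and 3.70 and 4.19 in the E14 ones. *Foxd1*, a forkhead factor expressed in the early hypothalamic field and in mesenchyme, led the list at 47.6 FPKM in E11 CTL and was at 0.117 in E14 CTL, and *Lhx9*, a LIM factor of the thalamus and other regions, went from 15.7 to 0.298. Of 14 midbrain and isthmus genes, 13 in CTL and all 14 in cKO were at least 2-fold lower at E14. With a pseudocount of 1 FPKM, 7 were in each genotype. The 14 genes summed to 24.8 and 24.0 FPKM in the E11 libraries and to 0.984 and 1.07 in the E14 ones. Of 10 hindbrain genes, 1 reached 1 FPKM in each library. Those lists hold low genes, so the shares of entries with no minimum level, given above, are the background for them. Among genes of the whole telencephalon, *Meis2*, a homeobox factor of the striatal field, was higher at E14, at 63.1 against 25.2 in CTL and 71.6 against 22.7 in cKO. *Zic1*, which marks dorsal midline and septal fields and also meninges, went from 68.4 to 7.05 FPKM in CTL and from 83.5 to 8.78 in cKO, and *Nr2f2*, of the caudal forebrain and of vessels, from 37.0 to 3.72 and from 45.2 to 4.97.

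Of the dorsal regulators outside the 9 genes, 3 of 13 were above 1 in the E14 to E11 ratio in each genotype, as *Emx1* and *Lhx2* were, and 10 were below 1. In CTL, 2 were above 1 with the median set to 0 and 1 with upper-quartile scaling. *Fezf2*, a zinc finger factor of deep-layer cortical neurons, was 1.69-fold higher in CTL and 1.37-fold in cKO, and *Dmrta2*, of the medial cortex, 1.19-fold and 1.18-fold, a direction that turned in CTL with upper-quartile scaling. Of the 13, 0 were at least 2-fold higher and 7 were at least 2-fold lower at E14 in each genotype (9 in CTL with upper-quartile scaling), where 12.5% of entries with the minimum were lower in CTL and 11.7% in cKO, or 25.3% and 17.4% without it, and the median was -1.28 in CTL and -1.07 in cKO on the log2 scale. *Pax6*, which is needed for dorsal progenitor identity, went from 44.2 to 14.6 FPKM in CTL and from 48.6 to 19.0 in cKO. *Neurog2*, which drives glutamatergic neurogenesis, went from 40.8 to 13.05 in CTL and from 43.8 to 20.9 in cKO. Of 15 ventral regulators outside the 9 genes, past the 2-fold threshold 4 were higher and 9 lower in CTL, and 4 and 6 in cKO, beside the shares of entries given above. *Gli1*, a target of Sonic hedgehog, was lower, at 11.3 and 12.6 FPKM in the E11 CTL and cKO libraries and at 0.0747 and 0.124 at E14, and *Shh* itself was at 6.54 and 6.89 at E11 and at 0.128 and 0.132 at E14. *Olig1* and *Olig2* were far higher at E14. *Olig2*, which acts in ventral progenitors and in the oligodendrocyte lineage, was at 11.9 and 15.5 FPKM at E11 and at 168 and 134 at E14. *Olig1*, of the oligodendrocyte lineage, was at 1.64 and 2.85 and then at 345 and 311.

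**Figure D3:**
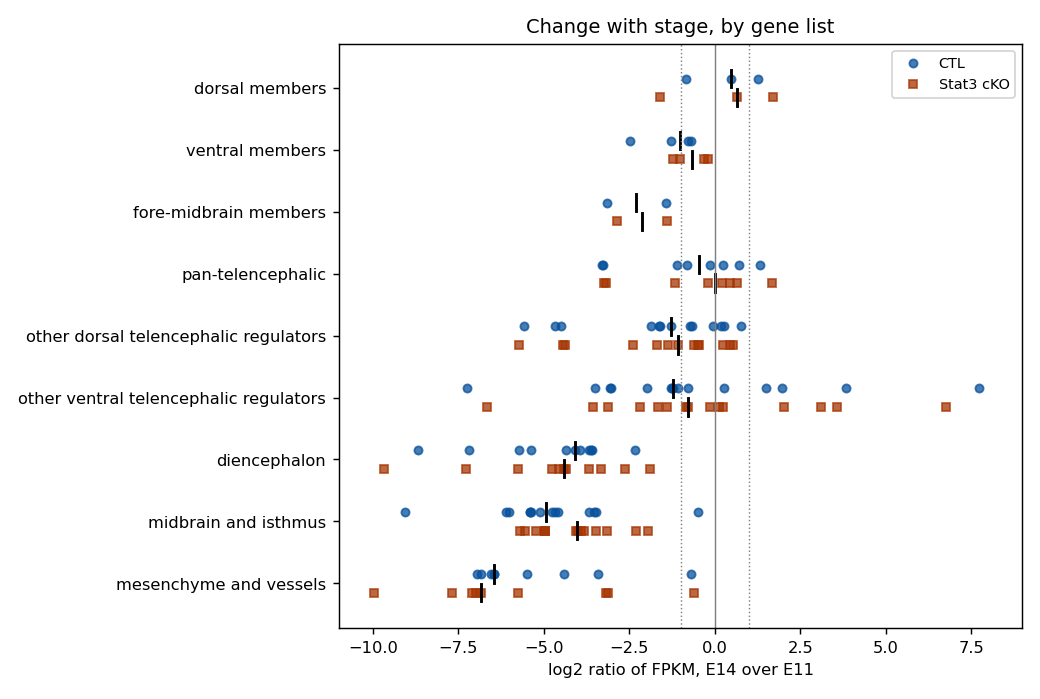
Log2 ratio of FPKM, E14 over E11, for each gene of 9 lists, with circles for CTL, squares for *Stat3* cKO and a black tick at the median of each list. Dotted lines mark 2-fold. The diencephalic, midbrain and mesenchymal lists lie to the left of 0, while the pan-telencephalic list and the lists of other dorsal and ventral regulators spread over both sides.

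The second question was how the *Stat3* cKO libraries differed from CTL. At E14, *Dlx2*, *Gsx2* and *Nkx2-1* were each more than 2-fold higher in cKO, and *Dlx1* less so, while no dorsal or Otx member reached 2-fold. These 3 of 9 members compare with 1.85% of entries at least 2-fold higher, and the 0 members lower with 1.69% of entries. With no minimum level the shares were 8.21% and 4.82%. At E11, 0 of 9 members reached 2-fold in either direction, against 0.209% of entries higher and 1.12% lower, or 2.3% and 9.11% with no minimum. The median log2 ratio of the 9 members was 0.13 at E11 and 0.22 at E14, where all entries had 0.06 and -0.08. Most of the 10 neural progenitor markers were also above 1 in the cKO to CTL ratio. At E11, 9 were (7 with upper-quartile scaling), with a median of 0.16 on the log2 scale and 0 past 2-fold. At E14, 8 were above 1, their median was 0.40 and 1 was past 2-fold. That gene was *Hes5*, a Notch target of progenitors, at 124 FPKM in CTL and 294 in cKO. The part of these markers in the ventral differences was not tested.

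At E14, *Gsx2* was at 2.56 FPKM in CTL and at 6.05 in cKO, a ratio of 2.36 (95% interval 1.99 to 2.83). At E11 it was at 4.37 and 6.93, a ratio of 1.58 (1.37 to 1.83). *Dlx2* was at 0.613 against 1.55 in the cKO, a ratio of 2.53 (1.89 to 3.44), resting on about 63 and 176 fragments. At E11 its ratio was 1.06 (0.916 to 1.23), an interval that includes 1. *Nkx2-1* was at 1.16 against 2.65, a ratio of 2.29 (1.87 to 2.82), and its E11 ratio was 1.17 (1.01 to 1.36), or 0.993 to 1.39 if its shorter transcript is assumed. For all 3 genes the lower bound at E14 lay below 2, so counting error alone leaves a difference of under 2-fold possible. With a pseudocount of 1 FPKM, 0 of the 3 reached 2-fold. *Dlx1* was 1.16 (1.05 to 1.29) times CTL at E14 and 1.44 (1.33 to 1.56) times at E11. The 4 ventral members were thus above 1 in the cKO to CTL ratio at both stages, with a median log2 ratio of 0.38 at E11 and 1.22 at E14. The E14 ratios of *Dlx2*, *Gsx2* and *Nkx2-1* set the lowest of the 4 libraries for each gene against E14 *Stat3* cKO, which was itself no higher than E11 *Stat3* cKO.

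The promoters of these 3 genes are shown because they were the members past 2-fold in the genotype comparison. Each is the 250 bases before the transcript start in RefSeq on build GRCm38.p6, read 5′ to 3′ on the strand of the gene, and none overlaps an exon of GENCODE M21. Capitals mark CACGTG, the E-box letters bound by some basic helix-loop-helix factors. The windows are chr5:75075351-75075600 on the plus strand for *Gsx2*, chr2:71546755-71547004 on the minus strand for *Dlx2* and chr12:56536909-56537158 on the minus strand for *Nkx2-1*.

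Gsx2: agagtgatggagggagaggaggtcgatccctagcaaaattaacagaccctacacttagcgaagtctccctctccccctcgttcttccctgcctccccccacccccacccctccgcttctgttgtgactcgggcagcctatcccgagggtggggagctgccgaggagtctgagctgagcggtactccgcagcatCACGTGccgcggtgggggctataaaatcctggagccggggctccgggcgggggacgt
Dlx2: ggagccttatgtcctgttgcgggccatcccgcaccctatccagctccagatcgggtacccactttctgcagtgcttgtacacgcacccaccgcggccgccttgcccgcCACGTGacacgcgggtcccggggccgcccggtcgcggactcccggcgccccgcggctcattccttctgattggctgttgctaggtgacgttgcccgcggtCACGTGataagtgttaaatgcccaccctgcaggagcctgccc
Nkx2-1: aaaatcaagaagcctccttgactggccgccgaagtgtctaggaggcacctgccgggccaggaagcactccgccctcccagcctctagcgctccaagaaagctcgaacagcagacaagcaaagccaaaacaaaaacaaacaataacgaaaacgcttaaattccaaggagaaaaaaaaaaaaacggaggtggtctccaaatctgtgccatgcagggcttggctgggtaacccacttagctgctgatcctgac

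The *Gsx2* window held CACGTG 1 time, the *Dlx2* window 2 times and the *Nkx2-1* window 0 times, and 6.02% of all 32851 windows of this length hold it. This motif was chosen after the windows had been seen. The letters TTCNNNGAA, to which STAT factors bind, were in 0 of these 3 windows and in 7.02% of all windows. TAATTA, a core to which homeodomain factors bind, was also in 0 of the 3 and in 4.84% of all. Each of these motifs reads the same on both strands and none overlapped another. A match is only a match of letters, and its absence says only that the letters are not in this window. Over the 12 windows found for 8 of the 9 genes, 1 held TTCNNNGAA, 2 held TAATTA and 2 held CACGTG. The single TTCNNNGAA lay in 1 of the 4 windows of *Otx2*, chr14:48665110-48665359, which lies wholly in annotated exons of other transcripts.

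The dorsal members differed from each other in the genotype comparison. *Emx1* was lower in cKO at both stages, with a ratio of 0.585 (95% interval 0.513 to 0.665) at E11 and 0.797 (0.741 to 0.857) at E14. *Emx2* was 1.505 times CTL (1.37 to 1.65) at E11 and 0.888 times (0.772 to 1.02) at E14, and the E14 interval includes 1. *Lhx2* was close to CTL at both stages, at 0.963 times (0.920 to 1.01) at E11 and 1.09 times (1.05 to 1.13) at E14. In the E11 pair, the level of *Emx1* over that of *Emx2* was 1.68 in CTL and 0.651 in cKO, so the order of the pair was turned around. *Stat3* itself was 0.911 times CTL in that pair. *Otx2* was 1.10 times CTL (1.05 to 1.15) at E11 and 1.34 times (1.18 to 1.53) at E14. *Otx1* was 1.004 times CTL (0.906 to 1.11) at E11, a value whose direction turned with upper-quartile scaling or with centring on the median, and 1.03 times (0.875 to 1.22) at E14.

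The 4 ventral members summed to 16.4 FPKM in CTL and 22.3 in cKO at E11, and to 7.92 and 14.4 at E14. The 3 dorsal members summed to 47.4, 45.1, 70.9 and 69.6 in the same order. Within each library the ventral sum was therefore 0.347, 0.494, 0.112 and 0.207 times the dorsal sum. The cKO had the higher ratio in both pairs, by 1.42-fold at E11 and 1.86-fold at E14, and E14 had the lower in both genotypes, at 0.322 times E11 in CTL and 0.419 times in cKO. With *Dlx1* left out, whose reads may be those of *Dlx1as*, the ratios were 0.224, 0.308, 0.0611 and 0.147. The dorsal sum was mostly *Lhx2*, and without it the ratios were 1.02, 1.48, 0.287 and 0.646, in the same order of libraries. With the other dorsal and ventral regulators added to the sums, the ratio was 3.34 in CTL and 2.68 in cKO at E14, so the direction of the E14 genotype difference and of both stage differences turned, while cKO over CTL at E11 was 1.03, and *Olig1* and *Olig2* made up most of that ventral sum.

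**Figure D4:**
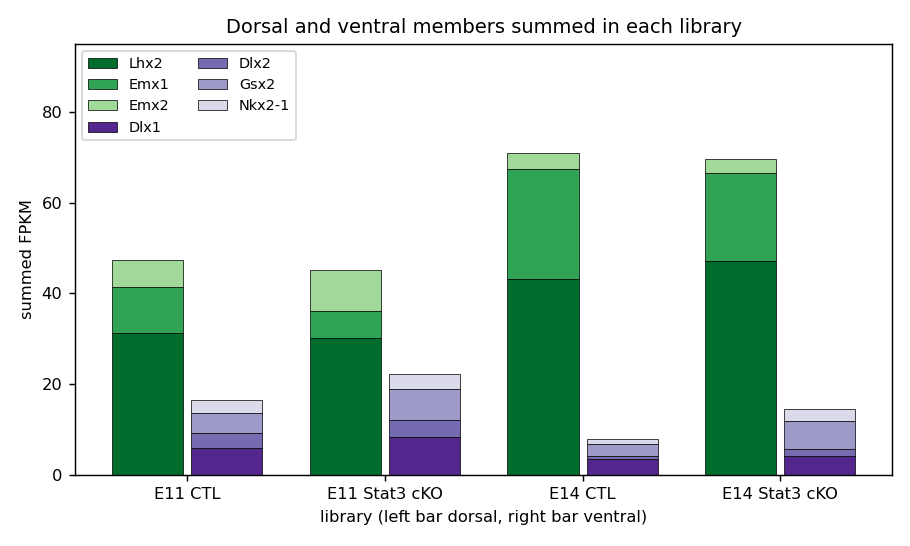
Summed FPKM of the dorsal genes (left bar, greens) and of the ventral genes (right bar, purples) in each of the 4 libraries, stacked by gene. The ventral bar is lowest in E14 CTL, at 7.92, and the dorsal bars are near 70 in both E14 libraries and below 50 in both E11 libraries.

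The ventral regulators outside the 9 genes were not higher by as much as *Dlx2*, *Gsx2* and *Nkx2-1*. At E14, 11 of 15 were above 1 in the cKO to CTL ratio and 0 reached 2-fold, beside 1.85% of entries with the minimum and 8.21% without, with a median log2 ratio of 0.38. *Dlx5*, of the same family and expressed as ventral cells differentiate, was at 0.645 FPKM in CTL and 0.489 in cKO. *Gsx1*, the relative of *Gsx2*, was at 0.487 and 0.727, and *Sp9* at 1.07 and 1.52. At E11, 2 of the 15 were at least 2-fold lower in cKO (1 with a pseudocount of 1), beside 1.12% of entries with the minimum and 9.11% without. Both are LIM homeobox genes that act after *Nkx2-1* in the medial ganglionic eminence. *Lhx8* was at 8.11 FPKM in E11 CTL and 1.58 in E11 *Stat3* cKO, and *Lhx6* at 1.67 and 0.572, while *Nkx2-1* was at 2.83 and 3.32. At E14 both were higher in cKO, *Lhx8* at 1.42 against 0.971 and *Lhx6* at 6.88 against 4.75. Of the 13 other dorsal regulators, 8 were above 1 at E14 and 10 at E11, and 0 reached 2-fold at either stage, which is near the shares of entries given above. With upper-quartile scaling or the median set to 0, 7 of the 13 were above 1 at E11.

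Among 10 patterning signals, with 9 that had a ratio at E14, 3 were at least 2-fold higher and 1 was at least 2-fold lower in the E14 *Stat3* cKO library, where 8.21% and 4.82% of all entries with no minimum were. The number higher was 5 with upper-quartile scaling, 1 with a pseudocount of 0.1 and 0 with a pseudocount of 1. *Bmp4*, a dorsal midline signal, was at 0.448 FPKM in E14 CTL and 1.33 in cKO, *Wnt3a*, of the cortical hem, at 0.0343 and 0.0836, and *Fgf17*, of rostral and isthmic signalling centres, at 0.015 and 0.0744, and the last 2 of these genes were far below 1 FPKM. *Bmp7* was the lower one, at 22.9 in CTL and 7.85 in cKO. *Shh*, the ventral signal on which *Nkx2-1* depends, was at 0.128 and 0.132, near the limit of these libraries. *Fgf15* was below 1 FPKM at E14, where it had been at 101 and 104 at E11, and *Fgf8* was below 1 in all 4 libraries.

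Markers of the neurons that arise from each territory were set beside the members. All 8 glutamatergic genes were below 1 in the cKO to CTL ratio at E14, with 0 reaching 2-fold and sums of 233 FPKM in CTL and 170 in cKO. *Neurod6*, of dorsal excitatory neurons, was at 104 and 72.0 FPKM. Of 8 GABAergic genes, 7 were above 1 at E14, with 0 at least 2-fold higher, 1 at least 2-fold lower and sums of 150 in CTL and 181 in cKO. *Sst*, the peptide of interneurons from the medial ganglionic eminence, was at 35.8 and 48.1, and *Gad1*, which makes GABA, at 10.7 and 12.5. The lower one was *Calb2*, at 13.9 in CTL and 6.93 in cKO, which was short of 2-fold under each scaling and pseudocount tried. Counts of 0 or 1 among 8 genes are too small to set against the shares of entries with the minimum. Those shares were 1.85% higher and 1.69% lower at E14 and 0.209% and 1.12% at E11. At E11 the same counts were 2 of 8 glutamatergic and 2 of 8 GABAergic genes above 1, or 1 and 1 with upper-quartile scaling or centring on the median. A single gene of both lists, *Neurod6*, was at least 2-fold lower at E11, at 8.14 FPKM in CTL and 3.76 in cKO, though not with a pseudocount of 1. The directions at E14 were the same under those scalings and with pseudocounts of 0.1 and 1.

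**Figure D5:**
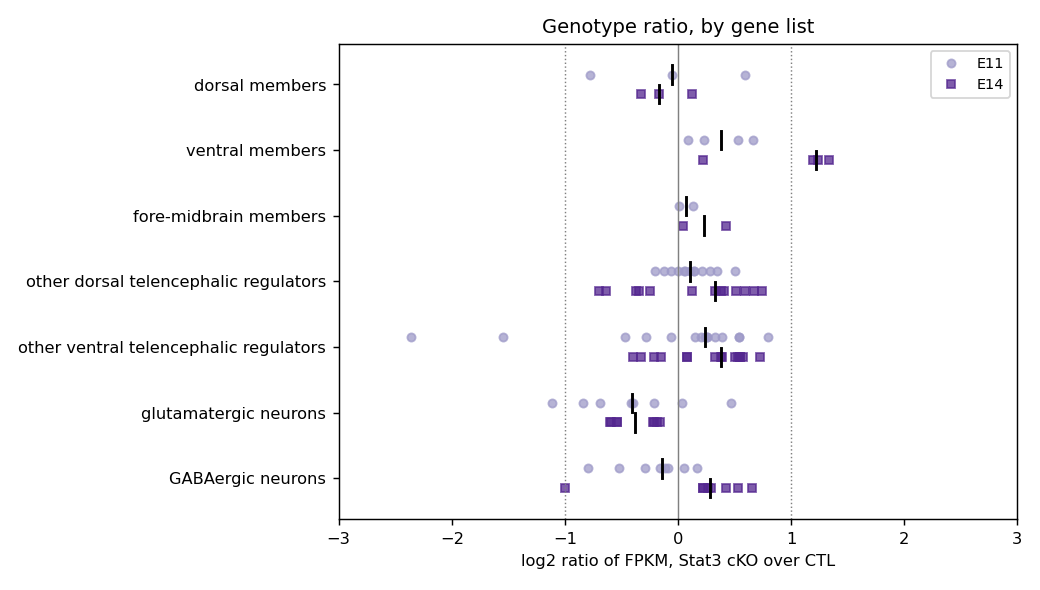
Log2 ratio of FPKM, *Stat3* cKO over CTL, for each gene of 7 lists, with pale circles for E11, dark squares for E14 and a black tick at the median of each list. At E14, 3 of the 4 ventral members lie to the right of the dotted 2-fold line, while no gene of the other lists does.

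The entries whose levels followed each gene most closely over the 4 libraries were read from 9112 entries with a mean of at least 5 FPKM, by the Euclidean distance of log2 FPKM centred on its mean. The number of libraries is 4, so many entries can lie near any gene. *Otx2* was nearest to *Mrc2*, at a distance of 0.13, and to *Cdh11*, at 0.18. Both are genes of mesenchymal cells, and *Mrc2* had 16.9, 18.4, 1.78 and 2.27 FPKM. *Emx1* was nearest to *Gria2*, an AMPA receptor subunit of neurons, at 0.10, with 25.6, 15.6, 64.8 and 53.7 FPKM, and then to *Kcnip1*. *Gsx2* was nearest to *Sesn3* and *Tril*, *Nkx2-1* to *Napepld* and *Dyrk1b*, and *Dlx2* to *Axl* and *Abca1*, at distances of 0.27 and 0.32. *Lhx2* was nearest to *Ralgps1* and *Capn10*, *Otx1* to *Skida1* and *Baz2b*, *Emx2* to *Ahcyl1* and *Mbtd1*, and *Dlx1* to *Azi1* and *Fam98b*. *E030019B13Rik*, an entry listed 2516 bases from *Nkx2-1*, had 1.71, 1.61, 0.344 and 0.616 FPKM and was lowest in E14 CTL, as *Nkx2-1* was.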

How the data were processed

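Total RNA of cultured neural progenitors was sequenced for 4 groups with 1 library each. The authors ran FastQC and then the TopHat-Cufflinks workflow, and they deposited FPKM values. The submitters' processing notes name Bowtie 0.12.2 and the builds mm8 and mm9. The annotation, strand setting and any further scaling are not given in the sources used here. Gene positions are given as the tables list them, and none was mixed with GRCm38 positions.

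FPKM values were used as deposited, with plain ratios and no pseudocount. A gene at 0 in either library was given no ratio. The background was all entries with a mean of at least 1 FPKM, or all entries, and calls used 2-fold. The value of 1 fragment was estimated from low FPKM multiplied by GENCODE M21 transcript length (transcripts over 1500 bases). The estimate was tried on simulated counts with small errors in transcript length, which leaves a wrong choice of transcript untried. Fragment numbers are approximate, since the transcript model behind each FPKM is not known. With transcripts over 2500 bases, E11 CTL came to about 41300000 fragments in place of 48400000, and the other 3 libraries to between 39500000 and 45300000. Intervals are exact conditional binomial at 95%. Promoters came from RefSeq, and the window of *Otx1* was not among them.

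The genes named were the 9 members, *Stat3*, from each of 18 lists the members past 2-fold or its highest genes, and for each member the 2 entries nearest in profile. *Dlx5*, *Gsx1*, *Sp9*, *Gad1*, *Sst*, *Nes*, *Fgf8*, *Ddx3y* and the neighbouring entries were named outside this rule after their values were seen, and so were *Fezf2* and *Dmrta2*. The members and lists were chosen with earlier results of these data known. No test between groups was run. With 1 library per group, a model of stage plus genotype would leave 1 residual degree of freedom, and only by taking the genotype difference to be equal at both stages. Alternatives were pseudocounts of 0.1 and 1, upper-quartile scaling, the median set to 0, folds of 1.5 and 3, a minimum mean of 5 FPKM or none, and other members in the ventral to dorsal ratio. Python 3.11.15, numpy 2.4.6, pandas 2.3.3, scipy 1.17.1 and matplotlib 3.10.9 were used.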

Additional observations from a re-analysis of the deposited data

Results flagged for a closer look

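The genotype ratio of 2 genes took opposite directions at the 2 stages. *Emx2* was above CTL in the E11 pair and below it in the E14 pair, a difference of -0.76 between the log2 ratios, E14 minus E11. *Lhx2* was below CTL in the E11 pair and above it in the E14 pair, a difference of 0.18. Each ratio comes from 1 library per group, the 95% counting interval of *Emx2* at E14 and of *Lhx2* at E11 includes 1, and the difference was not tested.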

How the results depend on the processing

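No paired fit was run, since each group had 1 library. Upper-quartile scaling moved every log2 ratio by -0.07 and 0.15 for cKO over CTL at E11 and E14, and by -0.37 and -0.15 for E14 over E11 in CTL and cKO. Of 688 log2 ratios of members and named genes under the 2 scalings and 2 pseudocounts, 612 stayed within the counting interval of a member or within 1.5-fold for other genes, 76 moved further, and 0 that were past 2-fold changed direction. For cKO over CTL at E11, a fold of 1.5 gave 2 members higher and 1 lower. At E14, 0 members were higher with a pseudocount of 1, with a fold of 3 or with a minimum mean of 5 FPKM. For E14 over E11 in CTL, 0 were higher with upper-quartile scaling or a fold of 3, and 7 were lower with upper-quartile scaling or a fold of 1.5, 2 with a fold of 3 and 1 with a minimum mean of 5. In cKO, 2 were higher with a fold of 1.5, and 3 were lower with a pseudocount of 1, 2 with a fold of 3 and 3 with a minimum mean of 5. A minimum of 5 FPKM leaves fewer members to count.

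The ventral to dorsal ratio, in the order E11 CTL, E11 cKO, E14 CTL and E14 cKO, was 1.02, 1.48, 0.287 and 0.646 without *Lhx2*. With *Lhx2* and *Dlx1*, the members of highest mean level on each side, both left out, it was 0.656 and 0.924 at E11. It was then 0.157 and 0.459 at E14, a cKO to CTL fold of 2.93 in place of 1.86. In E14 cKO itself the highest ventral member was *Gsx2*, not *Dlx1*. Without *Dlx1*, chosen after the data were seen, it was 0.224, 0.308 and 0.0611 in the first 3. With the other regulators added it was 3.34 in E14 CTL and 2.68 in E14 cKO, which turned both the stage difference and the E14 genotype difference. With *Olig1* and *Olig2* then left out, also chosen after the data were seen, it was 0.260 and 0.315 at E14, with cKO over CTL at 1.21 at E14 and 0.998 at E11. Depth limited *Dlx2* most, at about 63 fragments in E14 CTL.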

Other observations

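Choroid plexus and cortical hem genes mark the medial edge of the dorsal telencephalon. The 8 choroid plexus genes had no common direction with stage. At E14, 2 were at least 2-fold higher and 3 lower in CTL, and 3 higher and 2 lower in cKO. With a pseudocount of 1 FPKM, 1 was higher and 0 lower in CTL, and 2 higher and 0 lower in cKO. Of all entries with no minimum level, 12.4% were higher and 25.3% lower in CTL, and 11.8% and 17.4% in cKO. *Ttr*, the transthyretin of the choroid plexus, was at 0.263 and 0.282 FPKM in the E11 CTL and cKO libraries and at 118 and 82.2 in the E14 ones, so it was the gene that made the sum of the 8 choroid plexus genes 125 and 91.5 FPKM at E14 against 7.65 and 6.66 at E11. The 9 genes of the hem and of Cajal-Retzius cells summed to 41.4 and 38.1 FPKM at E11 and to 10.1 and 6.54 at E14, and 7 of 9 were at least 2-fold lower at E14 in each genotype, beside the same shares of entries. *Reln*, the secreted protein of Cajal-Retzius cells, had 7.72 FPKM in E11 CTL and 8.38 in E14 CTL, and 6.22 and 4.44 in the cKO libraries of the same stages. No gene of the eye and pigment epithelium list had a mean of 1 FPKM.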
